A study of Homo sapiens with 6 samples.

Results

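The S100 calcium-binding proteins described here are 10 genes, S100A4, S100A6, S100A7, S100A8, S100A9, S100A10, S100A11, S100A13, S100A14 and S100P, chosen by name from the 54644 gene records of an RNA-seq experiment in SKBR3 cells. SKBR3 is an established human breast adenocarcinoma line with amplified HER2. Cells were infected with lentivirus carrying the empty pLVX vector (control, 3 libraries) or pLVX-CTTN (CTTN, 3 libraries), and all cells of both groups were puromycin-selected stable cells, so both carry the vector and had the same selection. CTTN encodes cortactin, an actin-binding scaffold of cell protrusions. The comparison asked what cortactin overexpression did to the transcriptome. The labels give 3 biological replicates per group, and neither the promoter of the transgene nor the number of independent infections is given in the sources used here, so the p-values measure the spread between these libraries.

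S100 proteins are small EF-hand proteins that change shape when they bind calcium and then bind other proteins. S100A8 and S100A9 form calprotectin, a secreted heterodimer known from neutrophils and inflamed epithelium. S100A4, S100A6 and S100A11 bind cytoskeletal and membrane proteins, S100A10 is the calcium-independent partner of annexin A2, and S100A7 (psoriasin), S100A14 and S100P are known from epidermis and carcinoma. Most of the family lies in 1 cluster on chromosome 1 (band 1q21), and S100P lies apart on chromosome 4.

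The 6 libraries held between 34887079 and 41279658 counted fragments in gene records. FPKM (fragments scaled for transcript length and sequencing depth) was used for levels, and fold changes are from counts, except those by limma, which are from FPKM. The CTTN record was at 103.9, 107.9 and 107.8 FPKM in the control libraries and at 262.6, 328.9 and 179.8 FPKM in CTTN libraries 1, 2 and 3. Its log2 fold change was 1.35 ± 0.22 (SE, n = 3 and 3), with adjusted p = 0.02481 by edgeR's quasi-likelihood test. The call was lost without CTTN library 1 or any 1 control library (adjusted p 0.1215 to 0.1538), while the log2 fold change stayed between 1.33 and 1.35. This record cannot separate the transgene from the endogenous gene. The SKBR3 markers were present, with ERBB2 between 1644 and 1790 FPKM and KRT8, KRT18 and KRT19 between 750.6 and 3394 FPKM, while CDH1 stayed below 0.25 FPKM. Among markers of other cells, the leukocyte genes PTPRC and CD3E were at or below 0.2 FPKM, and MPO was listed at 0. Of 5 fibroblast genes DCN, LUM and PDGFRB did not exceed 0.1 FPKM, COL1A2 reached 0.164 FPKM, and COL1A1 was at 2.83 to 4.26 FPKM in all libraries. The 6 leukocyte markers summed to 608.5 to 634.3 FPKM in controls and 620.2 to 857.0 FPKM in CTTN cells, nearly all of it from a CD68 record that also holds EIF4A1 and SENP3. The 5 basal markers summed to 2.203 to 2.406 FPKM in controls and 2.901 to 3.925 FPKM in CTTN cells, and the 5 keratinocyte differentiation markers to 46.4 to 53.3 FPKM and 53.9 to 102.2 FPKM. KRT10 made up most of the latter and had the library order of the S100 genes (75.7, 53.1 and 100.8 FPKM in CTTN libraries 1, 2 and 3). The order was not particular to KRT10, as the luminal KRT8, KRT18 and KRT19 had it too, and ERBB2 did not. IVL, the other keratinocyte marker tested, had a log2 fold change of -0.35 ± 0.21. The part of these markers in the S100 differences was not tested. Over the 6 marker lists edgeR called CSF3R and the endothelial gene CDH5 lower and no gene higher, and DESeq2 called 4 genes, 1 each in the basal, keratinocyte, leukocyte and endothelial lists. Over all genes tested edgeR called 4.46% in either direction and DESeq2 14.4%. Without CTTN library 3 edgeR also called the basal marker TP63 higher. Both genes were below 5 FPKM in every library, and both calls were lost without CTTN library 1 or any 1 control library, and limma did not call CSF3R. CTTN library 3 stood apart from the other libraries. Summed over all genes, FPKM was 603634 to 624680 in the controls, 704018 in CTTN library 1, 605260 in CTTN library 2 and 852256 in CTTN library 3, and the S100 fold changes are therefore also given without it.

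The 10 genes covered a wide range of abundance in control cells, and this order is a description across genes on the FPKM scale. S100A6 (1456 ± 93.0 FPKM, SD, n = 3) and S100A9 (1356 ± 68.4 FPKM) were the most abundant, and their control libraries overlapped. S100A14 (834.4 ± 27.4 FPKM) and S100A11 (796.1 ± 47.3 FPKM) followed and also overlapped. S100A8 stood at 268.0 ± 13.01 FPKM and S100A13 at 190.9 ± 9.51 FPKM. S100A4 (140.4 ± 10.98 FPKM) and S100P (131.4 ± 21.04 FPKM) overlapped, and S100A10 (80.6 ± 2.30 FPKM) and S100A7 (14.9 ± 2.00 FPKM) were lowest. Together the 10 genes took 0.885%, 0.864% and 0.831% of all FPKM in control libraries 1, 2 and 3. In CTTN libraries 1, 2 and 3 they took 1.08%, 0.907% and 1.25%.

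**Figure D1:**
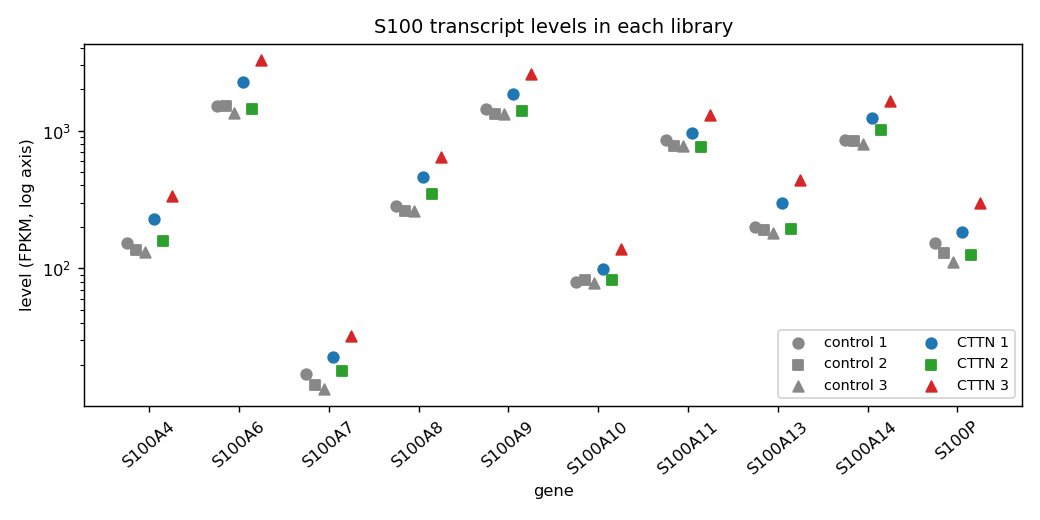
FPKM of each S100 gene (log axis) in the 3 control libraries (grey) and in CTTN libraries 1 (blue), 2 (green) and 3 (red), 1 point per library. CTTN library 3 is highest for all 10 genes and CTTN library 1 comes next, while CTTN library 2 lies within or near the controls for most genes.

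No S100 gene passed the test between groups, although all 10 estimates were higher in CTTN cells. The log2 fold changes ran from 0.33 for S100A11 to 0.86 for S100A8 with a median of 0.64, beside a median of 0.01 over the 14409 genes tested. Without CTTN library 3 they ran from 0.11 to 0.56 with a median of 0.32, beside 0.00 over all genes. By edgeR's quasi-likelihood test with Benjamini-Hochberg adjustment over all genes tested, 0 of 10 were called higher, where 2.43% of all genes tested were. Adjusted p-values of the 10 lay between 0.08249 and 0.2409. At an unadjusted p under 0.05, 7 of 10 were higher, against 16.2% of all genes. The 10 genes were chosen with earlier results of these data known. Counts of them beside shares of all genes, here and below, are therefore a description and not a test of the family. DESeq2 called 3 of 10 (S100A4, S100A8 and S100A14), against 7.47% of all genes, and limma called 0. In 4 of 10 (S100A4, S100A7, S100A8 and S100A14) every CTTN library lay above every control library, and 18.2% of all genes did so. All 10 genes exceeded the highest control in CTTN library 1, as did 41.7% of all genes, and all 10 did in CTTN library 3, as did 46.1% of all genes. In CTTN library 2, 4 of 10 did, against 35.4% of all genes.

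S100A8 (chr1:153390032-153391188, GRCh38, the build of the deposited coordinates) had the largest difference of the 10. Its FPKM was 283.0, 261.6 and 259.4 in the controls and 464.6, 345.0 and 648.5 in CTTN libraries 1, 2 and 3. All 3 CTTN libraries lay above all controls, including library 2. The log2 fold change was 0.86 ± 0.23 (95% interval 0.31 to 1.41, edgeR adjusted p = 0.08249). Its partner S100A9 (chr1:153357854-153361027) was at 1435, 1318 and 1315 FPKM in the controls and at 1840, 1378 and 2565 FPKM in CTTN libraries 1, 2 and 3. For S100A9 the groups overlapped, because CTTN library 2 lay below control library 1. The log2 fold change of S100A9 was 0.47 ± 0.20 (edgeR adjusted p = 0.1706), and 0.21 ± 0.11 without CTTN library 3.

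The ratio of the calprotectin subunits did not overlap between the groups, and this pair was chosen after its values were seen, so it is given as a description with no test. S100A8 FPKM divided by S100A9 FPKM was 0.1972, 0.1984 and 0.1973 in the controls and 0.2525, 0.2503 and 0.2528 in CTTN libraries 1, 2 and 3. The value hardly differed within a group, and it was as high in CTTN library 2 as in libraries 1 and 3. On the log2 scale the ratio was 0.35 higher in CTTN cells, with SDs of 0.0050 in controls and 0.0078 in CTTN cells. The main isoforms of the pair are 523 and 577 bases long. S100A9 exceeded S100A8 in FPKM in all 6 libraries.

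The RefSeq promoter windows (GRCh38.p14, 300 bases, mostly upstream of an annotated start) are printed for this pair, and for S100A14 and S100A11, the genes with the smallest adjusted p after S100A8 and with the smallest fold change. TATAA, the core of the TATA box, is in capitals, and so is the GC box GGGCGG on either strand (CCGCCC on the other).
S100A8 (chr1:153391024-153391323, minus strand): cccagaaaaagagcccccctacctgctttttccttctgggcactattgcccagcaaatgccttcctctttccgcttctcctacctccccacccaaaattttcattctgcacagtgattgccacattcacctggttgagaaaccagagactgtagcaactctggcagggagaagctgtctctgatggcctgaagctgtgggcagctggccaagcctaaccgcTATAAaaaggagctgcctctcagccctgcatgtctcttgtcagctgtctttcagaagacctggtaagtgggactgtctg
S100A9 (chr1:153357604-153357903, plus strand): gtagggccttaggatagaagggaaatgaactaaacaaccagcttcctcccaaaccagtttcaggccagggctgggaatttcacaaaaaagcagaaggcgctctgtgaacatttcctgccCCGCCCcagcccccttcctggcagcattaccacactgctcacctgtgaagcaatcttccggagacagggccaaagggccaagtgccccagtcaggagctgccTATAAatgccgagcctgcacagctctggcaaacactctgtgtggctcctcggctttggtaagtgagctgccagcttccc
S100A14 (chr1:153616276-153616575, minus strand): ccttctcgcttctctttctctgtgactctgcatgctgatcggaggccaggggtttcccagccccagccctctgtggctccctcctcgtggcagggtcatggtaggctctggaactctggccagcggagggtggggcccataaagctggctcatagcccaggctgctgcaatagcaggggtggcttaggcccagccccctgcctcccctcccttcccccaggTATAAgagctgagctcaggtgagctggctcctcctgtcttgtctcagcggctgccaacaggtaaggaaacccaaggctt
S100A11 (chr1:152036955-152037254, minus strand): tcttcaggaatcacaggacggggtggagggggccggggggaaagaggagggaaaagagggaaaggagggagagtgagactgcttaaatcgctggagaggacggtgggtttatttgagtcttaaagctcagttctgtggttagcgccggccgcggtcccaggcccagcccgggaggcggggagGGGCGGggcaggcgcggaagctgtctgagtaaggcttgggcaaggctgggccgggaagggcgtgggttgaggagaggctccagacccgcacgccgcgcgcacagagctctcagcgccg
All 10 genes matched the RefSeq table, and S100A8 has 3 windows there, of which the one with TATAA just before the start is shown. In the S100A8, S100A9 and S100A14 windows TATAA begins 29 bases before the start (position -29). Read on the gene's strand, TATAA was present in a window of 8 of 10 genes, against 17.8% of the 27305 genes in the table, and S100A10 and S100A11 held none. GGGCGG, on either strand, was present for 5 of 10 genes (S100A6, S100A9, S100A10, S100A11 and S100A13), against 48.3% of genes. The AP-1 site TGANTCA and the TCF/LEF site CTTTGAT, each searched on both strands, were in no window of the 10 and in windows of 9.4% and 3.2% of all genes. None of these motifs contains another, and a match is a description of the letters alone.

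S100A4 (chr1:153543613-153550136), known for its part in cell motility, was at 152.8, 136.4 and 131.9 FPKM in the controls and at 228.1, 158.8 and 335.6 FPKM in CTTN libraries 1, 2 and 3. The groups did not overlap, but library 2 lay just above the highest control. The log2 fold change was 0.75 ± 0.24 (edgeR adjusted p = 0.1103), and 0.44 ± 0.14 without CTTN library 3. The deposited interval is shared with S100A3, which was at or below 1.37 FPKM in every library. S100A6 (chr1:153533603-153536244), calcyclin, was at 1498, 1520 and 1349 FPKM in the controls and at 2242, 1425 and 3236 FPKM in CTTN libraries 1, 2 and 3. Here library 2 fell inside the control range, and the log2 fold change was 0.63 ± 0.24 (edgeR adjusted p = 0.1427), falling to 0.32 ± 0.14 without CTTN library 3.

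S100A7 (chr1:153457744-153460701), psoriasin, was the least abundant of the 10, with 256 fragments per library on average. It was at 17.1, 14.2 and 13.3 FPKM in the controls and at 22.7, 18.0 and 32.6 FPKM in CTTN libraries 1, 2 and 3. The groups did not overlap, and the log2 fold change was 0.69 ± 0.25 (edgeR adjusted p = 0.1345), or 0.39 ± 0.17 without CTTN library 3. S100A14 (chr1:153614255-153616986), an epithelial member of the family, was at 857.2, 842.0 and 804.0 FPKM in the controls and at 1241, 1005 and 1647 FPKM in CTTN libraries 1, 2 and 3. Every CTTN library was above every control, and the log2 fold change was 0.67 ± 0.18 (95% interval 0.24 to 1.09, edgeR adjusted p = 0.08272). Its main isoform, at 1058 bases, is the longest of the 10.

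S100A10 (chr1:151982915-151994390), which forms a tetramer with annexin A2, was at 80.3, 83.1 and 78.5 FPKM in the controls and at 98.8, 81.8 and 138.0 FPKM in CTTN libraries 1, 2 and 3. Library 2 lay inside the control range, and the log2 fold change was 0.43 ± 0.17 (edgeR adjusted p = 0.1529), or 0.21 ± 0.09 without CTTN library 3. The ratio of S100A10 to ANXA2 in FPKM was 0.470, 0.511 and 0.510 in the controls and 0.519, 0.512 and 0.637 in the CTTN libraries. CTTN library 3 was the highest, and library 2 lay close to control libraries 2 and 3. The main isoforms of S100A10 and ANXA2 differ in length, at 616 and 1435 bases, and the part of length in this ratio was not tested. S100A11 (chr1:151994531-152047907), calgizzarin, was at 850.8, 768.9 and 768.7 FPKM in the controls and at 966.0, 758.7 and 1308 FPKM in CTTN libraries 1, 2 and 3. CTTN library 2 was below all controls, and the log2 fold change was 0.33 ± 0.18 (95% interval -0.10 to 0.77, edgeR adjusted p = 0.2409). Without CTTN library 3 it was 0.11 ± 0.10.

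S100A13 (chr1:153618787-153646306), which takes part in the release of proteins without a signal peptide, was at 200.7, 190.0 and 181.8 FPKM in the controls and at 297.2, 194.5 and 438.4 FPKM in CTTN libraries 1, 2 and 3. Library 2 lay within the controls, and the log2 fold change was 0.64 ± 0.25 (edgeR adjusted p = 0.1468), or 0.32 ± 0.14 without CTTN library 3. The S100A13 record also holds AL162258.1 and AL162258.2, and its interval overlaps those of S100A1 and CHTOP. Over the 6 libraries S100A1 was at 0.594 to 1.48 FPKM and CHTOP at 49.2 to 63.3 FPKM. The library kit was stranded, but whether counting used the strand is not given in the sources used here. S100P (chr4:6693069-6697170), the only member outside chromosome 1, was at 153.6, 128.8 and 111.7 FPKM in the controls and at 183.0, 125.3 and 300.6 FPKM in CTTN libraries 1, 2 and 3. The order of its libraries was that of the genes on chromosome 1, with library 2 inside the control range. The log2 fold change was 0.59 ± 0.25 (edgeR adjusted p = 0.1655), or 0.27 ± 0.14 without CTTN library 3.

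The S100 differences moved with a pattern in the CTTN libraries that followed transcript length over all genes. Relative to the control mean, genes whose main isoform was up to 750 bases long (1314 genes) had median log2 FPKM differences of 0.28, 0.01 and 0.71 in CTTN libraries 1, 2 and 3. Genes over 4000 bases (2946 genes) had medians of -0.29, 0.02 and -0.55. The main isoforms of the 10 S100 genes are short, from 313 to 1058 bases. Their median log2 differences were 0.59, 0.03 and 1.14 in the same 3 libraries, and single S100 genes ranged from 0.28 to 0.79, from -0.07 to 0.37 and from 0.72 to 1.28. The libraries ranked 3, 1 and 2 by S100 level and 2, 1 and 3 by the CTTN record, whose main isoform is 3272 bases long. The cause of the S100 differences was not tested.

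**Figure D2:**
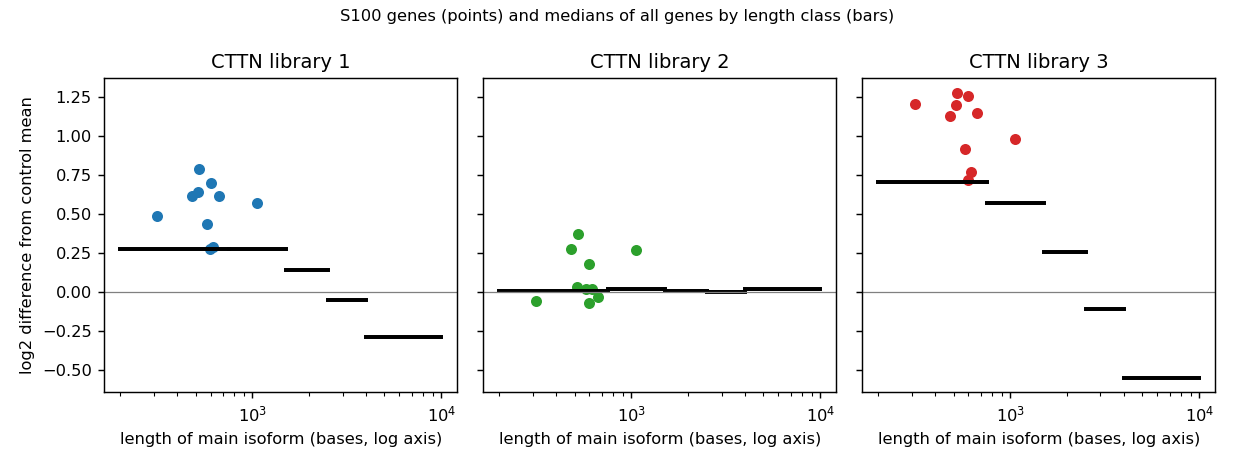
Log2 difference in FPKM from the control mean against the length of the main isoform (bases, log axis), 1 panel per CTTN library; points are the 10 S100 genes and black bars the medians of all genes in 5 length classes, with arbitrary outer ends. In libraries 1 and 3 the bars descend from 0.28 to -0.29 and from 0.71 to -0.55 and all points lie at or above the bar of their class, while in library 2 the bars stay near 0.

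Other handling of the libraries changed which S100 genes were called. Without CTTN library 3, 2 of 10 genes were called higher by edgeR, against 4.56% of all genes tested. These were S100A8 (log2 fold change 0.56 ± 0.13, adjusted p = 0.02993) and S100A14 (0.44 ± 0.10, adjusted p = 0.03178). Without CTTN library 2, 10 of 10 were called, with log2 fold changes from 0.49 for S100A11 to 1.07 for S100A8, but 22.9% of all genes were called higher too. With no filter on low counts 2 of 10 were called (S100A8 and S100A14), against 2.09% of all genes. With each library's trend on transcript length entered as an offset, an alternative chosen after seeing the data, 3 of 10 were called, against 8.43% of all genes. Under this offset the edgeR log2 fold change was 0.54 ± 0.10 for S100A8 (adjusted p = 0.01305), 0.37 ± 0.07 for S100A14 (adjusted p = 0.01118) and 0.43 ± 0.11 for S100A4 (adjusted p = 0.03964). Under it S100A11 was at 0.03 ± 0.06 and S100A10 at 0.12 ± 0.06, and neither passed. The median over the 10 genes was 0.31 with the offset and 0.19 with the offset and without CTTN library 3. With the offset and without CTTN library 3, the same 3 genes were called, against 9.52% of all genes. S100A8 and S100A14 were called in each of these 5 alternatives and by DESeq2, but not by edgeR on all 6 libraries with the filter and no offset (whether scaled by TMM, DESeq2 size factors or library totals), by limma, or when CTTN library 1 or any 1 control library was left out.

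**Figure D3:**
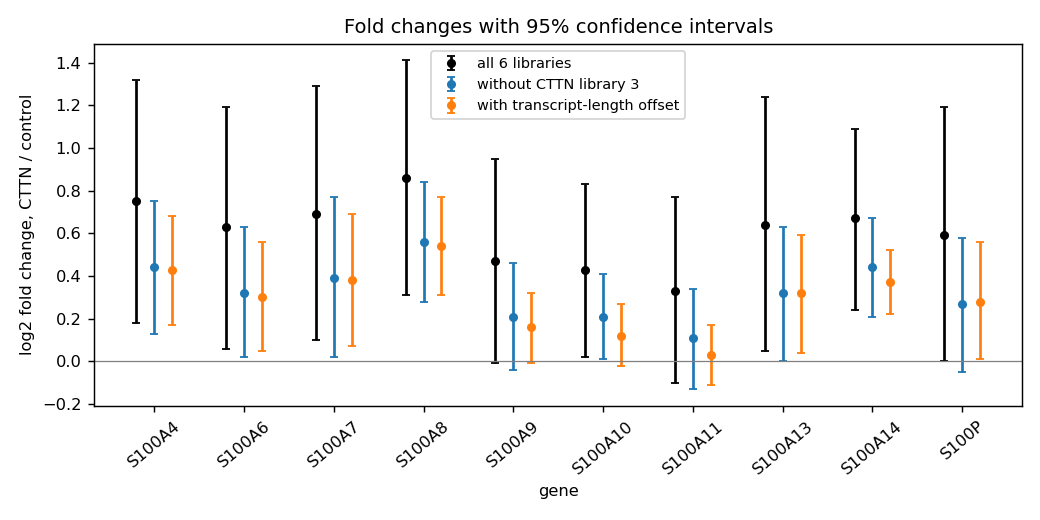
Log2 fold change of each S100 gene, CTTN over control, with its 95% confidence interval in the edgeR fit of all 6 libraries (black), without CTTN library 3 (blue) and with the transcript-length offset (orange). The estimates for S100A8 are 0.86, 0.56 and 0.54, and those for S100A11 are 0.33, 0.11 and 0.03.

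As a description, each member was also set against the mean log2 FPKM of the 10 genes in its own library, a mean that includes the gene itself. S100A8 was 0.24 higher in CTTN cells on this scale (0.04 ± 0.04 in controls and 0.28 ± 0.03 in CTTN cells, SD, n = 3 each), and S100A4 was 0.14 higher. Neither gene's groups overlapped. S100A11 was 0.26 lower (1.61 ± 0.04 against 1.35 ± 0.09) and S100A9 0.11 lower (2.38 ± 0.04 against 2.27 ± 0.03), again with no overlap. S100A10 was 0.21 lower with overlapping groups, and the other 5 genes differed by 0.11 or less. Setting each gene against a mean of the same 10 makes some positive and others negative, so no test is given and a value below 0 does not mean that a gene's level fell. No share of all genes without overlap was computed on this scale, so the separations cannot be weighed against one.

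**Figure D4:**
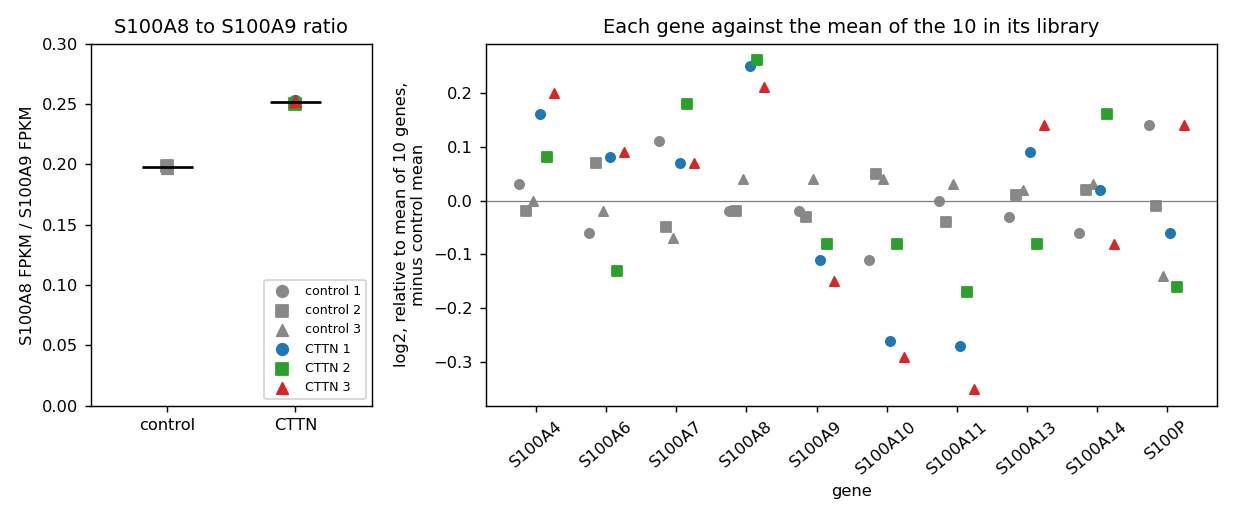
Left, the ratio of S100A8 to S100A9 FPKM by library with the group means as lines; right, each gene's log2 FPKM relative to the mean of the 10 genes in its library, minus the control mean. The ratio is near 0.20 in the 3 controls and near 0.25 in the 3 CTTN libraries, and on the right S100A8 lies above and S100A11 below its controls in all 3 CTTN libraries.

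At the level of isoforms and start sites no S100 record passed the test. Of 51 isoform records of the 10 genes 37 were tested by edgeR, with 0 called and 6 higher at an unadjusted p under 0.05. Of 27 start-site records 21 were tested, with 0 called and 5 higher at an unadjusted p under 0.05. limma called 0 in both tables, and edgeR called 0 without CTTN library 3. Over each whole table edgeR called 0 of 58051 isoforms and 0 of 35799 start sites, with 3629 and 3732 at an unadjusted p under 0.05. In 7 of the 10 genes 1 start site carried 94.96% or more of the FPKM. S100A8 was mainly 1 isoform of its downstream start site (97.9% of its FPKM). The exceptions were S100A4, S100A10 and S100P. In S100A10 the minor start site (32.0% of FPKM) was at 23.9, 25.9 and 25.1 FPKM in controls and at 31.8, 31.6 and 39.2 FPKM in CTTN libraries 1, 2 and 3. All 3 CTTN libraries of this minor S100A10 site were above the controls (log2 fold change 0.47 ± 0.13, edgeR adjusted p = 0.4776). The major S100A10 site (67.9%) was at 56.5, 57.2 and 53.4 FPKM and at 66.5, 50.2 and 98.8 FPKM, and the groups overlapped.

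Outside the 10 genes, related gene lists were read against all genes tested. Of all genes tested, limma called 1.28% in either direction, and 30.2% had an unadjusted edgeR p under 0.05. The remaining S100 family was mostly low. Of 10 further family genes 6 were tested and edgeR called 0, with 2 at an unadjusted p under 0.05 and 0 called by DESeq2 or limma. Their median log2 fold change was 0.48, or 0.33 without CTTN library 3. S100A16, the neighbour of S100A14, was the only abundant one, at 884.0, 867.6 and 860.7 FPKM in controls and 1164, 903.7 and 1547 FPKM in CTTN libraries 1, 2 and 3. Its groups did not overlap, and its log2 fold change was 0.45 ± 0.18 (edgeR adjusted p = 0.1458). Of 7 fused-type S100 genes, large epidermal proteins with an S100 domain, 5 were listed at 0 in all libraries, the 2 tested were below 0.3 FPKM, and edgeR, DESeq2 and limma called 0 (1 at an unadjusted p under 0.05). Of the epidermal and flanking genes of 1q21 10 records were tested (INTS3 and SLC27A3 share 1), with a median log2 fold change of 0.03. None was called by edgeR, DESeq2 or limma, and 2 had an unadjusted p under 0.05.

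Among protein partners of S100 proteins 14 of 16 genes were tested, and edgeR called 1 higher and 0 lower (6 at an unadjusted p under 0.05, 4 called by DESeq2, 1 by limma). The median log2 fold change of the partners was 0.03, or -0.02 without CTTN library 3. The called gene was PLAUR, the urokinase receptor, at 6.47, 7.12 and 6.72 FPKM in controls and 14.1, 11.2 and 15.9 FPKM in CTTN libraries. PLAUR rose by 1.08 ± 0.12 on the log2 scale (edgeR adjusted p = 0.00843), and this call was lost without control library 1, 2 or 3 or CTTN library 1, with adjusted p from 0.06667 to 0.08354. ANXA2, the partner of S100A10, had a log2 fold change of 0.21 ± 0.13. Of 5 receptors 4 were tested, and edgeR called CD36 (2 at an unadjusted p under 0.05, 1 called by each of DESeq2 and limma). CD36, a fatty acid scavenger receptor that binds S100A8 and S100A9 with arachidonic acid, was at 1.33, 1.06 and 1.37 FPKM in controls and 3.13, 4.52 and 3.03 FPKM in CTTN libraries. It rose by 1.68 ± 0.14 on the log2 scale (edgeR adjusted p = 0.004132), with adjusted p of 0.05353 and 0.05198 without control library 2 or 3. AGER (RAGE), the receptor for several S100 proteins, averaged 1.11 FPKM in controls and 1.43 FPKM in CTTN cells (log2 fold change 0.45 ± 0.16, not called), and TLR4 was listed at 0 in all libraries.

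Of 12 transcription factors known to act on S100 genes all were tested and edgeR called 0, with 4 at an unadjusted p under 0.05 and 1 called by DESeq2. limma called 0. Their median log2 fold change was -0.20, or -0.13 without CTTN library 3, and edgeR called PLAUR and CD36 and no other gene of the 6 S100-related lists without that library. CEBPB, a factor of myeloid and epithelial S100A8 and S100A9 expression, was at 126.7, 107.8 and 107.0 FPKM in controls and at 142.5, 103.0 and 241.4 FPKM in CTTN libraries 1, 2 and 3. CEBPB was not called, and its log2 fold change was 0.44 ± 0.23. The regulators did not share 1 order of the CTTN libraries. CEBPA was, like CEBPB, highest in library 3 and lowest in library 2, at 6.48, 5.31 and 8.58 FPKM in CTTN libraries 1, 2 and 3. EHF (5.31, 11.8 and 2.78 FPKM), STAT3 (70.9, 89.6 and 52.9 FPKM) and HIF1A (51.3, 70.5 and 39.7 FPKM, a record that also holds SNAPC1) had the reverse order.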

How the data were processed

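RNA-seq of control and CTTN SKBR3 cells (3 libraries each) was analysed from the tables the authors deposited. Per the labels, bcl2fastq 2.20.0, Trimmomatic, STAR and Cufflinks were used with GRCh38, whereas the study's methods name hg19 and Cutadapt. The deposited coordinates match GRCh38. The deposited count table held estimated counts of fragments that the authors had divided by a scale ratio per library; multiplied by this deposited ratio, all gene values under 1000 came within 0.02 of whole numbers, and they were rounded. FPKM values were used as the authors gave them. The deposited sample table and the labels name different control columns. The sample table was followed for the group and for the library numbers, so which control replicate a number stands for is uncertain.

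Genes passing filterByExpr were tested with edgeR 4.0.16 (quasi-likelihood, TMM, two-sided, Benjamini-Hochberg, threshold 0.05) in R 4.3.3. Alternatives were DESeq2 1.42.0, limma 3.58.1 on log2(FPKM + 1) or log2(FPKM + 0.1), other scaling, no filter, each library left out, a replicate block and a transcript-length offset (lowess, span 0.3). Log2 differences in FPKM used a pseudocount of 0.1. The scripts were tested on simulated data. The members and gene lists were chosen with earlier results of these data known. The 10 genes, CTTN, genes called in the lists, and list genes averaging at least 1 FPKM could be named, and not all of the latter are. Markers and genes listed at or near 0 are named as such.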

Additional observations from a re-analysis of the deposited data

How the results depend on the processing

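Of the 150 log2 fold changes of the 10 S100 genes under 15 distinct alternatives, 149 stayed above 0, 126 kept both direction and side of the threshold, 23 passed the threshold only there, and 1 reversed, S100A11 at -0.02 (edgeR adjusted p = 0.868) with the transcript-length offset and without CTTN library 3. Their median, 0.64, was 0.32 without CTTN library 3, 0.31 with the length offset and 0.19 with both. The number of S100 genes called, 0 of 10 in the fit of all libraries, was 2 with no filter, 3 by DESeq2, 3 with the length offset, 3 with the offset and without CTTN library 3, and 0 to 10 when 1 library was left out (10 without CTTN library 2, 2 without CTTN library 3). Over all genes, 643 were called by edgeR, 185 and 180 by limma at pseudocounts of 1 and 0.1, 976 with no filter, 2074 by DESeq2, 2299 with the offset, 2712 with the offset and without CTTN library 3, 29 with the control columns on which both sources agree (the same fit as without control library 1), and 15 to 6925 with 1 library left out (15 without control library 2, 6925 without CTTN library 2). The 6 S100-related lists, cell type markers left out, held 2 calls, 6 by DESeq2 and 0 to 27 with 1 library left out. With the replicate block 105 genes and 0 S100 genes were called, and the CTTN record and CSF3R lost their calls (adjusted p 0.05876 and 0.05709). By the numbers of the deposited sample table, same-numbered libraries had correlations of 0.022, 0.074 and -0.183 between their deviations. The labels number the control columns differently, and the 2 pairs that their numbering gives had -0.012 and 0.196. By neither numbering was every correlation above 0.1, and the libraries were not treated as pairs. No S100 isoform or start site was called under any alternative run. The cause of these differences was not tested. Depth was lowest for S100A7, with 256 fragments per library on average.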
